A study of Mus musculus with 7 samples.

Results

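Transcripts of 10 forkhead transcription factors of mesenchyme were counted in C3H10T1/2, a mesenchymal line of the mouse whose cells can form bone, cartilage or fat. The genes were those rows of the deposited table of reads per gene whose symbol was Foxd1, Foxd2, Foxf1a (now Foxf1), Foxf2, Foxc1, Foxc2, Foxs1, Foxp1, Foxp2 or Foxo1, and all 10 were found among 18468 genes. Cells had been kept for 12 h without serum and were then exposed for 48 h, still without serum, to 2 μM purmorphamine, a small-molecule agonist of the Hedgehog transducer Smoothened (4 libraries, replicates 5 to 8), or to the vehicle alone, 0.02% DMSO (3 libraries, replicates 2 to 4). The labels do not say that the libraries came from separate cultures, so that the p-values measure only the spread between these libraries, which may be technical. Both groups came from this 1 line.

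Forkhead factors share a DNA-binding domain, the forkhead box or winged helix, and are grouped into lettered subfamilies by its sequence. FoxC, FoxD and FoxF factors mark the mesenchyme of the embryo and of organs such as kidney, eye, lung and gut, where FoxF genes in particular are known to respond to Hedgehog ligands from the neighbouring epithelium. FoxP factors mostly repress transcription, and FoxO factors carry the response to insulin and growth factors, being driven out of the nucleus when AKT phosphorylates them.

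The FoxD, FoxF, FoxC and FoxS members are close relatives within the forkhead box, which is shown here because reads of related genes must be told apart by such stretches. The first 60 bases of the box were read from the GENCODE M21 transcripts, 5′ to 3′, and capitals mark the 33 bases that were identical in all 7 genes.
Foxd1: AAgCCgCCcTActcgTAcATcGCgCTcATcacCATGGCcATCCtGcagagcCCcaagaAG
Foxd2: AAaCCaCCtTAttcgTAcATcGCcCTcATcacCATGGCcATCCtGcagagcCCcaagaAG
Foxf1a: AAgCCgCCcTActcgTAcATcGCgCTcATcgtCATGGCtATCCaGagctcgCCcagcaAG
Foxf2: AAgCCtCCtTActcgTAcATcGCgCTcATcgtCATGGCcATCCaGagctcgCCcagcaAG
Foxc1: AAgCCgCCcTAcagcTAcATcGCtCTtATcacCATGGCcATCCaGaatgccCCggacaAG
Foxc2: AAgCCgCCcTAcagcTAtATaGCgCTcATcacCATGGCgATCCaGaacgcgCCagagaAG
Foxs1: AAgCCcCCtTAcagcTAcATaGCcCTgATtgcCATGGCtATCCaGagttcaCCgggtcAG
In GRCm38 these stretches lie in the first exon, at chr13:98355007-98355066 (plus strand), chr4:114908378-114908437 (minus), chr8:121084540-121084599 (plus), chr13:31626377-31626436 (plus), chr13:31807439-31807498 (plus), chr8:121116825-121116884 (plus) and chr2:152933021-152933080 (minus). Foxp1, Foxp2 and Foxo1 gave no match to the search pattern for this opening. Foxd1 and Foxd2 differed at 5 of the 60 bases, Foxf1a and Foxf2 at 3, and Foxc1 and Foxc2 at 9. Over whole transcripts, the longest run of bases common to Foxc1 and Foxc2 was 53, at chr13:31807646-31807698 and chr8:121117032-121117084, shown in capitals because every base is shared.
Foxc1 and Foxc2: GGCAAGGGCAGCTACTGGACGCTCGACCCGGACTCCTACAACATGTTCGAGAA
The longest common run was 47 bases for Foxd1 and Foxd2, 41 for Foxf1a and Foxf2, and 35 for Foxp1 and Foxp2. All of these were shorter than the 100-base reads. They are exact runs only, and how well mapping told related genes apart was not tested.

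Purmorphamine raised most of the 10 genes, with log2 fold changes that ran from 2.41 for Foxd1 to 0.15 for Foxp1. Foxd1, Foxd2, Foxp2, Foxc1 and Foxf2 increased by at least 1.5-fold, Foxo1 and Foxp1 increased by less, Foxf1a decreased, and Foxc2 showed no call. Foxs1 was called higher on few reads. By edgeR's quasi-likelihood test, at the study's threshold of an adjusted p under 0.2 (Benjamini-Hochberg, over the 12388 genes tested), 8 of the 10 were called higher and 1 lower. Over all genes tested 62.5% were called, 31.4% higher and 31.1% lower, so that a call in itself was common in these data. In reads as deposited, every purmorphamine library exceeded every DMSO library for 8 of the 10 genes, against 29.1% of all genes tested. For none of the 10 was every purmorphamine library below every DMSO library (20.4% of all genes). Scaling lowered the purmorphamine reads against the DMSO reads, and the Foxo1 groups then overlapped (799 with purmorphamine against 811 with DMSO). With a change of at least 1.5-fold also required, 5 members were higher and 1 was lower, against 15.4% of all genes in either direction. The median log2 fold change was 0.60 over the members and 0.0038 over all genes tested, and the median of its absolute value was 0.70 and 0.20. The members were chosen with earlier results of these data known. These comparisons with all genes therefore describe the list and do not test whether forkhead genes rose as a group. Since these are bulk RNA samples, fewer cells of a kind and less RNA per cell cannot be told apart.

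**Figure D1:**
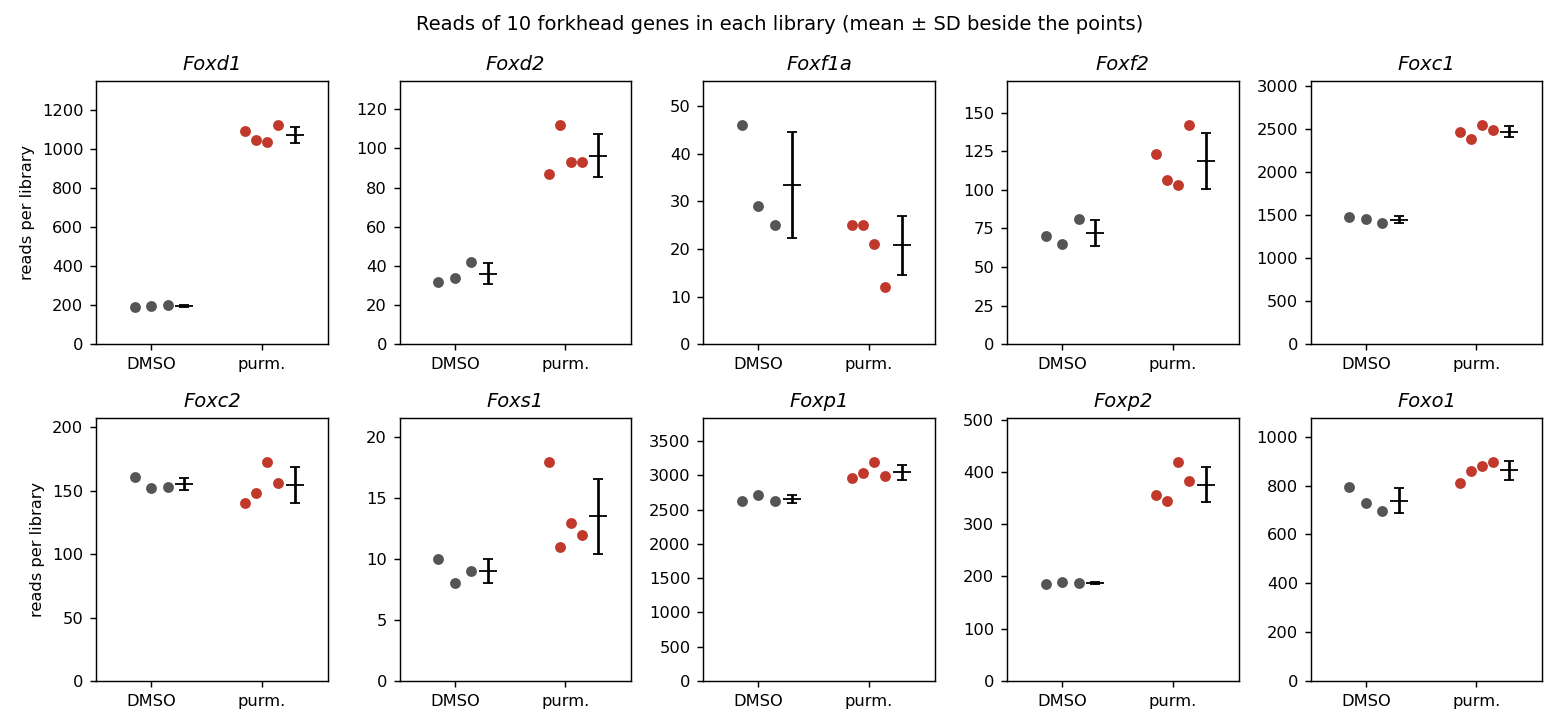
Reads per library (vertical axes, from 0, each on its own scale) for the 10 forkhead genes with DMSO (grey, n = 3) and purmorphamine (purm., red, n = 4), with the mean and SD beside the points. Foxd1 went from 192 to 199 reads with DMSO to 1034 to 1123 with purmorphamine, Foxf1a has a lower mean with purmorphamine (20.75 against 33.3 reads) with groups that meet at 25, and the Foxc2 groups overlap.

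Standard targets of Hedgehog signaling rose in these libraries. Gli1 is a transcription factor of the pathway and itself a target. It had 12, 7 and 11 reads with DMSO and 2811, 3171, 2576 and 2522 with purmorphamine. Ptch1, the Hedgehog receptor and also a target, went from 521 ± 15.1 (SD, n = 3) to 10922.5 ± 475 reads (SD, n = 4), a log2 fold change of 4.34. The libraries held 14337225 to 14342154 reads each. Where a gene has no reads, up to 3 (0.209 CPM, reads per 1e6 library reads) remain possible from counting error alone. Of 10 mesenchymal or fibroblast markers all were present, with a summed level of 19650 to 20111 CPM with DMSO and 18221 to 19573 with purmorphamine. Within that sum the markers moved in both directions, with 6 called higher and 2 lower. For this list and those below, the shares of all genes tested were 31.4% called higher and 31.1% called lower. Vim, the intermediate filament of mesenchyme, fell the most (log2 fold change -0.96), and Twist2, a mesenchymal transcription factor, rose the most (2.11). Markers of other cell types were low in sum, and some moved with the treatment. The sum of 5 pericyte markers was 71.3 to 79.1 CPM with DMSO and 93.7 to 110 with purmorphamine (2 called higher, 1 lower, Kcnj8 at 3 reads or fewer), and that of 5 endothelial markers was 54.3 to 57.2 and 132 to 150. Nearly all of the endothelial sum was Tek, while Tie1, Pecam1 and Kdr stayed at or near 0. Cdh5 went from no reads to between 21 and 26 (log2 fold change 7.53). Without DMSO reads, the size of that Cdh5 value depends on the small count that edgeR adds and is not a measured ratio. Tek and Cdh5 were called higher, and no endothelial marker was called lower. The 2 of 5 epithelial markers with a row summed to 14 to 22 reads with DMSO and 111 to 136 with purmorphamine (1 called higher), and Epcam, Krt18 and Krt5 had no row. Of the neural crest or glial markers 2 of 3 had a row, without Sox10, and summed to 328 to 367 and 79 to 94 reads (1 called lower). Blood markers, 3 of 4 with a row, summed to 53 to 57 and 55 to 75 reads with none called. The part of these other markers in the values of the forkhead genes was not tested.

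The FoxD genes had the largest log2 fold changes of the 10. Foxd1 (ENSMUSG00000078302; single exon, chr13:98354242-98359305 in GRCm38, as for all positions, plus strand), which marks the stromal progenitors of the kidney and its pericyte lineage, had 192, 197 and 199 reads with DMSO and 1090, 1047, 1034 and 1123 with purmorphamine. All 4 purmorphamine libraries were far above the DMSO libraries, and each group was tight. The means were 196 ± 3.61 (SD, n = 3) and 1073.5 ± 40.8 (SD, n = 4), and the log2 fold change was 2.41 (standard error, SE, 0.064, 95% interval 2.27 to 2.54, adjusted p = 3.00e-14 from edgeR). This placed Foxd1 at position 75 from the top among the 12388 genes tested, ordered by log2 fold change. Over all alternatives in processing its log2 fold change stayed between 2.36 and 2.45. Foxd2 (ENSMUSG00000055210; single exon, chr4:114906282-114908873, minus strand), which is expressed in kidney, facial and somite-derived mesenchyme, had 32, 34 and 42 reads with DMSO and 87, 112, 93 and 93 with purmorphamine. The groups did not overlap, with means of 36 ± 5.29 and 96.25 ± 10.9, and the log2 fold change was 1.37 (SE 0.16, 95% interval 1.03 to 1.70, adjusted p = 1.84e-06 from edgeR). With 1 library left out at a time the Foxd2 value was at least 1.29.

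The FoxC genes parted from each other. Foxc1 (ENSMUSG00000050295; single exon, chr13:31806633-31812476, plus strand), needed for mesenchyme of the eye, skull and somites, had 1481, 1452 and 1406 reads with DMSO and 2462, 2388, 2547 and 2484 with purmorphamine. The groups were again well apart. The mean rose from 1446 ± 37.8 to 2470.25 ± 65.6, a log2 fold change of 0.73 (SE 0.047, 95% interval 0.63 to 0.82, adjusted p = 1.11e-09 from edgeR). Foxc2 (ENSMUSG00000046714; single exon, chr8:121116171-121118895, plus strand), known for lymphatic vessels, heart outflow and skeletal mesenchyme, had 161, 152 and 153 reads with DMSO and 140, 148, 173 and 156 with purmorphamine. The purmorphamine libraries lay on both sides of the DMSO libraries. Its log2 fold change of -0.06 (SE 0.10, adjusted p = 0.681 from edgeR) has a 95% interval from -0.27 to 0.16, so that a change of the size seen in Foxc1 lies outside it.

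The FoxF genes were called in opposite directions, Foxf1a on few reads. Foxf1a (ENSMUSG00000042812; 2 exons, chr8:121084386-121088144, plus strand), a factor of lung and gut mesenchyme, had 46, 29 and 25 reads with DMSO and 25, 25, 21 and 12 with purmorphamine. The groups met at 25 reads, and replicate 2 with DMSO and replicate 8 with purmorphamine were the extremes. The log2 fold change was -0.73 (SE 0.27, 95% interval -1.30 to -0.16, adjusted p = 0.0356 from edgeR), and the exact permutation test on reads after scaling gave p = 0.0571 (two-sided). Without DMSO replicate 2 the log2 fold change was -0.42 and the adjusted p 0.271 from edgeR, so that the call rested on that library. Foxf2 (ENSMUSG00000038402; 2 exons, chr13:31625816-31631403, plus strand), required in the mesenchyme of palate and gut and in brain pericytes, had 70, 65 and 81 reads with DMSO and 123, 106, 103 and 142 with purmorphamine. The groups were apart, with means of 72 ± 8.19 and 118.5 ± 18.0 and a log2 fold change of 0.67 (SE 0.14, 95% interval 0.37 to 0.97, adjusted p = 0.000946 from edgeR). Foxs1 (ENSMUSG00000074676; single exon, chr2:152931898-152933208, minus strand), expressed in perivascular cells and sensory neurons, had only 10, 8 and 9 reads with DMSO and 18, 11, 13 and 12 with purmorphamine. The groups did not overlap, but by 1 read. Foxs1 was called at the threshold (log2 fold change 0.53, SE 0.31, adjusted p = 0.176 from edgeR), while its 95% interval of -0.12 to 1.19 included 0 and the exact permutation test gave p = 0.0571 (two-sided). The Foxs1 call was lost with DESeq2 (adjusted p = 0.423), and in edgeR with no filter on low counts (adjusted p = 0.257), without any 1 of the DMSO libraries (0.217, 0.342 and 0.276 without replicates 2, 3 and 4) and without purmorphamine replicate 5 (0.417).

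The FoxP genes both increased, Foxp2 by the larger factor. Foxp1 (ENSMUSG00000030067; chr6:98925338-99522721, minus strand), a repressor with roles in heart, lung and B cells, was abundant at 2626, 2718 and 2621 reads with DMSO and 2958, 3034, 3202 and 2986 with purmorphamine. The lowest purmorphamine library was above the highest DMSO library, yet the change was small, with a log2 fold change of 0.15 (SE 0.046, 95% interval 0.053 to 0.25, adjusted p = 0.0131 from edgeR). Foxp2 (ENSMUSG00000029563; chr6:14901349-15441977, plus strand), a repressor known from speech circuits and from lung, had 185, 190 and 187 reads with DMSO and 356, 344, 420 and 382 with purmorphamine. Its mean rose 2.00-fold, from 187 ± 2.52 to 375.5 ± 33.6, with replicate 7 the highest, and the log2 fold change was 0.96 (SE 0.089, 95% interval 0.77 to 1.14, adjusted p = 1.23e-07 from edgeR).

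Foxo1 (ENSMUSG00000044167; 3 exons, chr3:52268336-52353221, plus strand), the FoxO factor best known for metabolic control, had 795, 727 and 694 reads with DMSO and 810, 861, 882 and 898 with purmorphamine. As deposited the groups did not overlap, whereas after scaling the highest DMSO library (811) exceeded the lowest purmorphamine library (799). The log2 fold change was 0.18 (SE 0.060, 95% interval 0.049 to 0.30, adjusted p = 0.0234 from edgeR), against p = 0.0857 by the exact permutation test (two-sided). For the 6 genes Foxd1, Foxd2, Foxf2, Foxc1, Foxp1 and Foxp2 the same permutation test gave 0.0286, the smallest that 3 libraries against 4 allow.

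**Figure D2:**
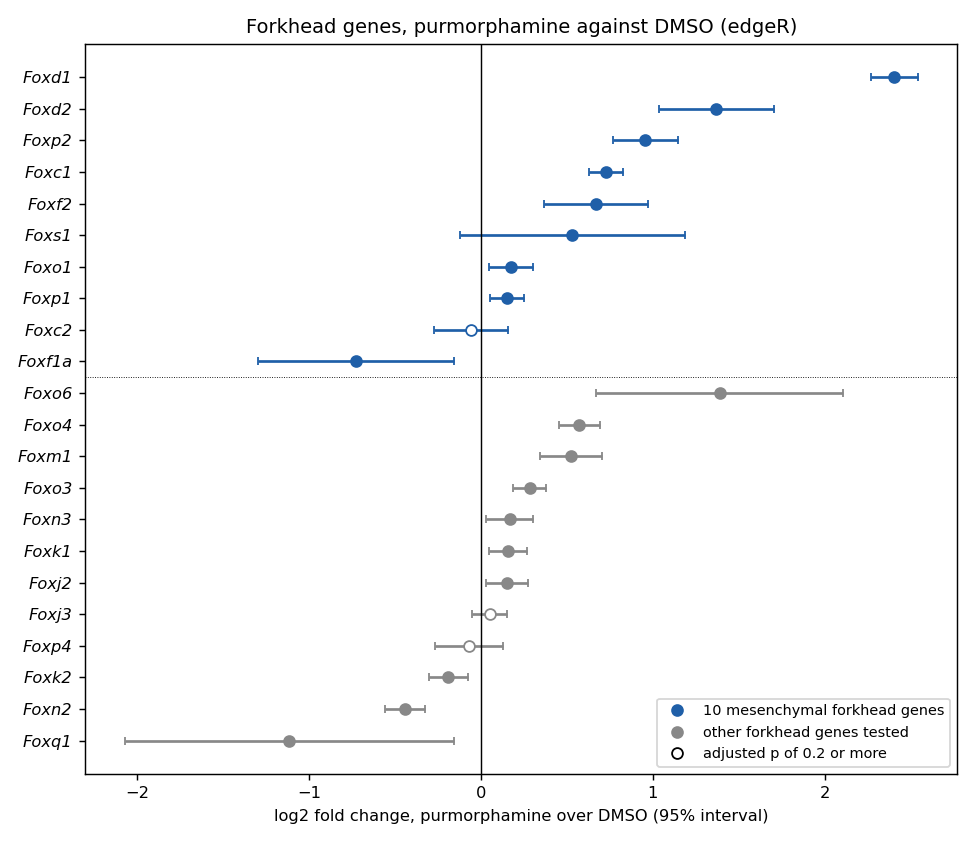
Log2 fold change of purmorphamine over DMSO with its 95% interval (horizontal axis, edgeR) for the 10 members (blue, top) and 12 of the 13 other forkhead genes tested (grey, bottom), with open circles where the adjusted p was 0.2 or more. Foxd1 at 2.41 lies apart from the rest, 2 of the grey genes are open, and the interval of Foxs1 crosses 0.

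Ratios of paralogs within a library need no scaling between libraries, and test directly whether the members of a subfamily changed by different amounts. There were 9.20, 9.55 and 9.19 Foxc1 reads per Foxc2 read with DMSO and 17.6, 16.1, 14.7 and 15.9 with purmorphamine. On the log2 scale, with 1 read added, this ratio rose by 0.79, from 3.21 ± 0.032 (SD, n = 3) to 4.00 ± 0.10 (SD, n = 4). Foxd1 reads per Foxd2 read were 6, 5.79 and 4.74 with DMSO and 12.5, 9.35, 11.1 and 12.1 with purmorphamine, a rise of 1.05 in the log2 ratio. Thus both FoxD genes increased, and Foxd1 by the larger factor. For Foxf1a to Foxf2 the ratio was 0.657, 0.446 and 0.309 with DMSO and 0.203, 0.236, 0.204 and 0.0845 with purmorphamine, and its log2 fell by 1.37. The log2 ratio of Foxp1 to Foxp2 was 3.82, 3.83 and 3.80 with DMSO and 3.05, 3.14, 2.93 and 2.96 with purmorphamine, and it fell by 0.80. The groups did not overlap for any of the 4 pairs, and each gave an exact permutation p = 0.0286 (two-sided, the smallest possible with 3 libraries against 4), which was also 0.0286 after Benjamini-Hochberg adjustment over the 4 pairs. With 1 library left out at a time the change in the Foxf1a to Foxf2 ratio ran from -1.63 to -1.05.

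**Figure D3:**
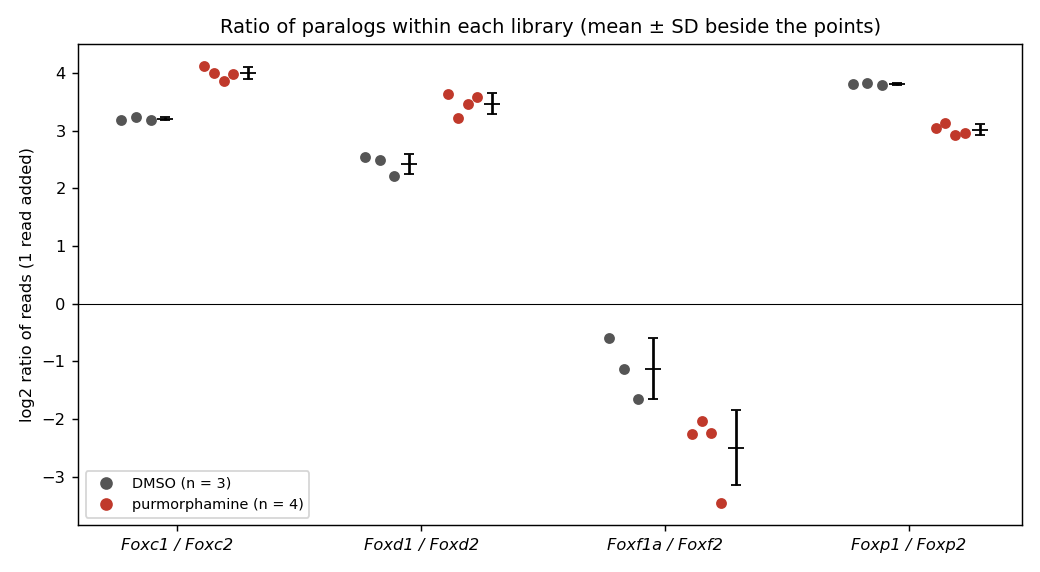
Log2 ratio of reads of 2 paralogs within each library (vertical axis, 1 read added to each count) with DMSO (grey, n = 3) and purmorphamine (red, n = 4), with mean and SD beside the points. The Foxc and Foxd ratios lie higher and the Foxf and Foxp ratios lower with purmorphamine, without overlap, and purmorphamine replicate 8 is the lowest Foxf point at -3.46.

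Levels can be ordered between genes only per length, here as reads per kb of merged exon and 1e6 reads. The length merges all exons of GENCODE M21, 13751 bases for Foxp1 and 16346 for Foxp2. The annotation behind the counts is not given, and which transcripts were expressed was not tested. The order depends on these lengths, and the SDs cover only the spread between libraries. With DMSO the order was Foxc1 (17.3 ± 0.451), Foxp1 (13.5 ± 0.277), Foxo1 (5.94 ± 0.414), Foxc2 (3.97 ± 0.126), Foxd1 (2.70 ± 0.0497), Foxf2 (2.12 ± 0.242), Foxd2 (0.968 ± 0.142), Foxf1a (0.962 ± 0.322), Foxp2 (0.799 ± 0.0108) and Foxs1 (0.479 ± 0.0532). In this order the ranges of Foxd2 and Foxf1a overlapped, as did those of Foxf1a and Foxp2, and all other neighbours were apart. With purmorphamine Foxc1 stayed first at 29.5 ± 0.781, and Foxd1 moved from position 5 to position 3 at 14.8 ± 0.562, with a range that overlapped that of Foxp1 (15.4 ± 0.553). Then came Foxo1 (6.94 ± 0.308), Foxc2 (3.95 ± 0.361) and Foxf2 (3.50 ± 0.530), the last 2 of which overlapped. Lower down were Foxd2 (2.59 ± 0.293), Foxp2 (1.47 to 1.79), Foxs1 (0.718 ± 0.165) and Foxf1a (0.599 ± 0.177). Foxf1a thus moved from position 8 to position 10, with a range that overlapped that of Foxs1.

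**Figure D4:**
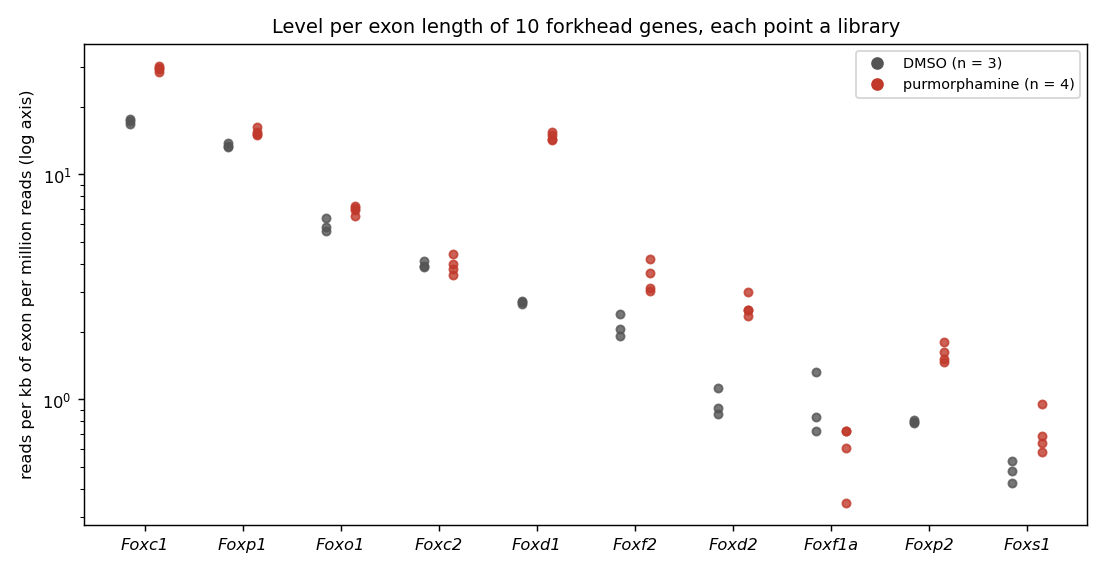
Level of each of the 10 genes in each library, as reads per kb of exon and 1e6 library reads (vertical log axis), with DMSO (grey, n = 3) and purmorphamine (red, n = 4), ordered by the DMSO mean. Foxc1 is highest in both groups, and Foxd1 rises from 2.70 to 14.8, into the range of Foxp1.

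The other forkhead genes of the mouse moved in both directions. Of 34 on the list 21 had a row, and 13 of these passed the filter on low counts. The 8 untested genes (Foxa1, Foxa2, Foxd4, Foxh1, Foxj1, Foxl1, Foxl2 and Foxp3) stayed at or under 3 reads in each library. Of the 13, 7 were called higher and 4 lower, with a median log2 fold change of 0.15 and a median absolute value of 0.29. The shares over all genes tested were 31.4% higher and 31.1% lower. The 3 other FoxO genes were all called higher, as Foxo1 was. Foxo3, at 1152 ± 9.81 and 1450.0 ± 30.3 reads, had a log2 fold change of 0.29 (adjusted p = 6.27e-05 from edgeR), and Foxo4, at 532 ± 25.5 and 818 ± 27.0, one of 0.57 (adjusted p = 3.21e-07 from edgeR). Foxo6 rested on few reads, 3, 8 and 9 with DMSO and 21, 20, 15 and 17 with purmorphamine, and had a log2 fold change of 1.39 (adjusted p = 0.00287 from edgeR). Foxm1, which drives genes of mitosis, rose from 391 ± 31.2 to 580 ± 65.9 reads (log2 fold change 0.52). The other increases were small, with log2 fold changes of 0.15 for Foxj2, 0.16 for Foxk1 and 0.17 for Foxn3. Foxn2 fell from 1117 ± 76.6 to 849 ± 24.9 reads (log2 fold change -0.44, adjusted p = 4.11e-06 from edgeR). Foxk2 was lower by little (-0.19). Foxj3 (0.05) and Foxp4 (-0.07) were not called. Foxq1 is described with its neighbours.

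FoxO factors are controlled chiefly by phosphorylation, which read counts do not measure, so the genes around them were counted from 2 lists. For comparison with both lists, 31.4% of all genes tested were called higher and 31.1% lower. Of 21 genes that act upstream of FoxO, in insulin and PI3K-AKT signaling or as modifiers of FoxO proteins, 6 were called higher, 5 lower and 10 not, with a median log2 fold change of 0.03. The largest change was that of Sgk1, a kinase that phosphorylates FoxO proteins, which fell from 232 ± 9.54 to 108 ± 17.6 reads (log2 fold change -1.15, 95% interval -1.39 to -0.91, adjusted p = 2.36e-07 from edgeR). Its 4 purmorphamine libraries, at 100, 121, 87 and 124 reads, were all below the DMSO libraries at 223, 242 and 231. Irs2, an adaptor of the insulin receptor, rose with a log2 fold change of 0.44, and Skp2, which targets FoxO1 for degradation, with 0.35. Of 22 genes known as FoxO targets 21 were tested, and 11 were called higher, 7 lower and 3 not, with a median log2 fold change of 0.09. The 4 largest changes went both ways. Bcl6, a transcriptional repressor, rose from 416 ± 19.0 to 734 ± 12.7 reads (log2 fold change 0.77, adjusted p = 1.13e-08 from edgeR). Trib1, a pseudokinase, fell from 168 ± 5.69 to 95 ± 5.77 (-0.87, adjusted p = 2.33e-06 from edgeR). Klf2 (-0.70) and Pdk4 (-0.67), a transcription factor of vessels and a kinase that restrains pyruvate oxidation, also fell. Irs2 and Insr stand on both lists.

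Several members lie in gene clusters or beside noncoding genes, and the nearest tested gene on each side was taken for each member. Of 18 different neighbours that were not members, 8 were called higher, 3 lower and 7 not. Over all genes tested 62.5% were called, 31.4% higher and 31.1% lower, so that calls were no more common among the neighbours. Foxd2os (9130206I24Rik in the table) starts 383 bases from Foxd2 on the opposite strand (chr4:114909257-114921967 in GRCm38, plus strand), and it is a noncoding transcript. It had 104, 137 and 113 reads with DMSO and 339, 319, 371 and 344 with purmorphamine. Its groups did not overlap, and its log2 fold change was 1.49 (adjusted p = 2.43e-09 from edgeR) beside 1.37 for Foxd2. In the table's own coordinates the 2 genes overlap, and the counts were made from sense-strand reads. The next gene on that side of Foxd2, Cmpk1, fell (-0.31), and Trabd2b on the other side rose (1.06). Fendrr (1110050K14Rik in the table), a noncoding gene 1275 bases from Foxf1a and known from lateral mesoderm, had 41, 48 and 31 reads with DMSO and 49, 43, 30 and 36 with purmorphamine. The Fendrr groups overlapped (log2 fold change -0.07, adjusted p = 0.823 from edgeR, 95% interval -0.50 to 0.37), and Mthfsd, between Foxf1a and Foxc2, was not called either (0.03).

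The related cluster on chromosome 13 holds Foxq1, Foxf2 and Foxc1. Foxf2 and Foxc1, which are 175229 bases apart, both rose, with log2 fold changes of 0.67 and 0.73 and intervals that overlap. Foxq1, a factor of hair and epithelia 64839 bases before Foxf2, had 12, 14 and 9 reads with DMSO and 3, 2, 5 and 12 with purmorphamine. Its groups overlapped through replicate 8, and its log2 fold change was -1.11 (95% interval -2.07 to -0.16, adjusted p = 0.0532 from edgeR). Gmds, 7102 bases beyond Foxc1, rose by less (0.36). At the edge of the Foxc2 cluster, Fbxo31, 430544 bases away, rose (0.77). The largest change of a neighbour was that of Gm765, beside Foxp1 at a distance of 582583 bases, which went from 11, 16 and 8 reads to 116, 84, 103 and 89 (log2 fold change 3.01). The other neighbours of Foxp1, Foxp2, Foxd1, Foxs1 and Foxo1 were Eif4e3 (0.07, not called), 1110019D14Rik (0.13, not called) and Mdfic (0.59), Gm9828 (0.14, not called) and Fcho2 (0.38), Tpx2 (0.61) and Pdrg1 (-0.20), and Maml3 (-0.05, not called) and Cog6 (0.0034, not called).

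**Figure D5:**
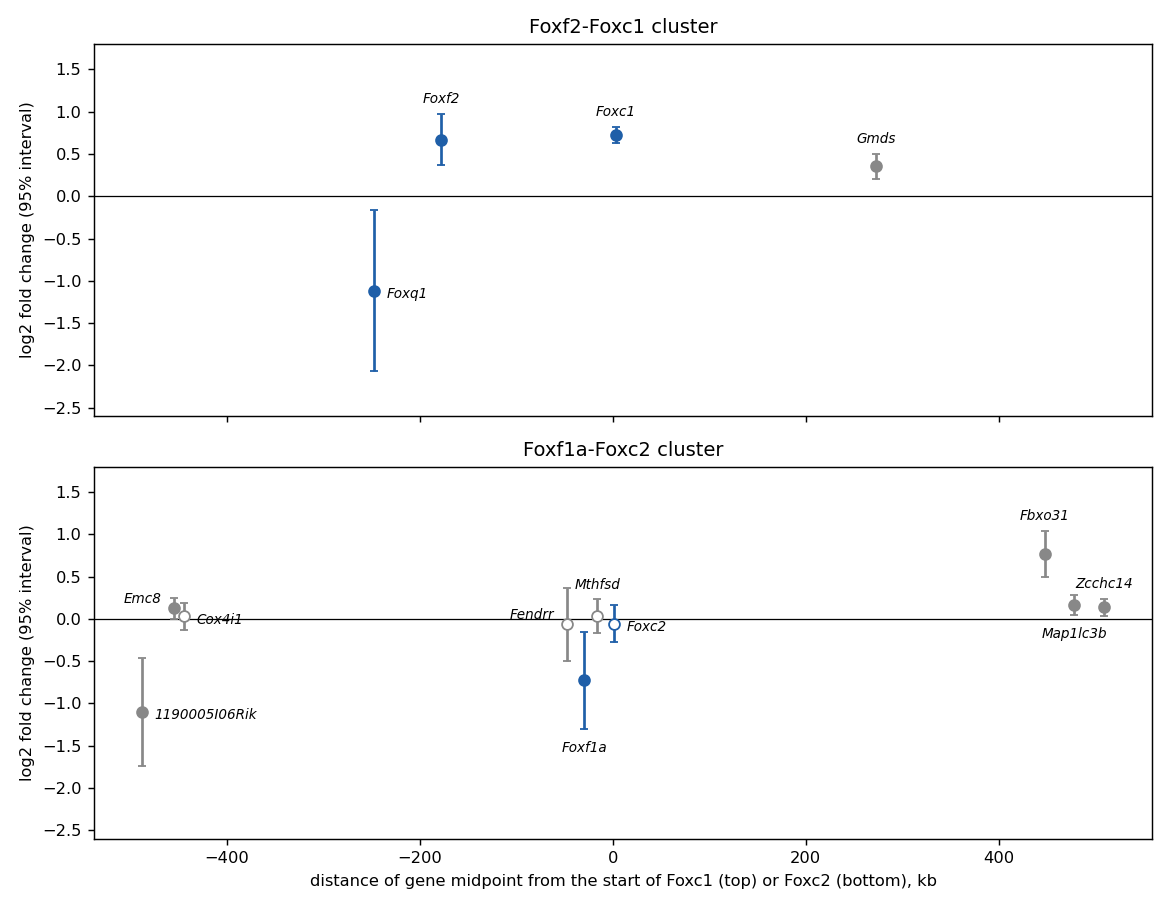
Log2 fold change with 95% interval (vertical axis, edgeR) of the genes tested that reach within 500 kb of Foxc1 (top) and Foxc2 (bottom), by the distance of each gene's midpoint from the start of that gene in kb. Forkhead genes are blue, other genes grey, and open circles mark an adjusted p of 0.2 or more. Foxf2 and Foxc1 lie above 0 and Foxq1 below in the upper panel, and in the lower panel Foxf1a is below 0 between Fendrr and Mthfsd, which are open.

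Promoter sequence was examined for the members because several rose together. RefSeq promoters (GRCm38.p6, from 250 bases before to 50 after the start) were given for 6 of the 10 members, 8 promoters in all, and there was no entry for Foxf1a, Foxc2, Foxs1 or Foxp2. The 4 shown are those of the members with an entry that rose by at least 1.5-fold, 5′ to 3′ on the gene's strand, with capitals for the GC box (GGGCGG, or CCGCCC on the other strand), to which Sp1 and related factors bind.
Foxd1: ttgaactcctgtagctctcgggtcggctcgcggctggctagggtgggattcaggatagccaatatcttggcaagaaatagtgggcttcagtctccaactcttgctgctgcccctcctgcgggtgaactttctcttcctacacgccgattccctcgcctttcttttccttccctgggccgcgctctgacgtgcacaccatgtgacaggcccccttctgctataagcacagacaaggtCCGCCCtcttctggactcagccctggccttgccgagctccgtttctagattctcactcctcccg
Foxd2: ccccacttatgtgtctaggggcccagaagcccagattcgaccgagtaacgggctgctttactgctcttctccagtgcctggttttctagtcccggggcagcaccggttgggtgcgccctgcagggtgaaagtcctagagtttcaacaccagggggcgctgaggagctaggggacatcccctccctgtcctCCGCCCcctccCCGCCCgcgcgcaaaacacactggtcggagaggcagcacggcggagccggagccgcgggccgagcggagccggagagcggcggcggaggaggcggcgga
Foxf2: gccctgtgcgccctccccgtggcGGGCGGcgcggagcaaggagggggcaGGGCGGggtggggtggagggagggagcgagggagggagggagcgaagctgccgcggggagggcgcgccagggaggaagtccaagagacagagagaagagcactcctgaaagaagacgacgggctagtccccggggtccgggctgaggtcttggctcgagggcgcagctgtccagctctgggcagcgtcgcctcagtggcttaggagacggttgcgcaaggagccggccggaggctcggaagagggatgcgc
Foxc1: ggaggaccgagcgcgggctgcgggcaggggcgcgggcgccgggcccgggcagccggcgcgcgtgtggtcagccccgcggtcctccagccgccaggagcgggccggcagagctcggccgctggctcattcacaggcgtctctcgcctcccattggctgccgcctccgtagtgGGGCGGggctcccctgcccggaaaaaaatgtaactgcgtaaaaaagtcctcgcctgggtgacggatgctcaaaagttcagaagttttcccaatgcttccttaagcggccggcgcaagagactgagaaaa
They lie at chr13:98353995-98354294 (plus strand), chr4:114908849-114909148 (minus), chr13:31625566-31625865 (plus) and chr13:31806396-31806695 (plus). GC boxes were found in all 4, with 1 each in Foxd1 and Foxc1 and 2 each in Foxd2 and Foxf2, and in 35.7% of all 32851 promoters. Members that rose by less held them too, with 5 in the promoter of Foxo1 and 3, 1 and 0 in the 3 promoters of Foxp1. The GC content was 57.7% for Foxd1, 67.7% for Foxd2, 71.3% for Foxf2 and 67.3% for Foxc1, against a median of 52.7% over all promoters. On either strand none of the 8 promoters held the Gli site (GACCACCCA, in 0.253% of all promoters), the forkhead site GTAAACA (3.65%) or TATAAA (13.6%). This says only that those letters are not in these windows.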

How the data were processed

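The authors sequenced stranded total RNA (7 libraries, single 100-base reads), equalized library size by resampling, and deposited counts of sense-strand reads per gene. The submitters' processing notes name STAR 2.5.3a and mm9. The annotation is not given in the sources used here. Groups follow the labels, which give no batch.

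The deposited counts were tested with edgeR 4.0.16 (limma 3.58.1, R 4.3.3): TMM factors (0.978 to 0.986 with DMSO, 1.01 to 1.02 with purmorphamine), default filter (minimum count 10, total 15; 12388 of 18468 genes kept), quasi-likelihood test, Benjamini-Hochberg adjustment, call under 0.2. The SE is the log2 change divided by the root of F. Alternatives were limma-voom (the test the study used), DESeq2 1.42.0, other scaling, filters and thresholds, each library left out, and, chosen after seeing the data, a correction for GC content and length. Permutation tests covered all 35 assignments of libraries. On simulated counts (12261 genes) 91.9% of 197 changed genes were recovered, and 17.4% of calls were false.

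Named were the members, called genes of the other forkhead list, Gli1, Ptch1, the 4 largest called changes of each FoxO list, each member's nearest tested genes and Fendrr. Some genes that this rule covers are not reported here. Other genes were named after their values were seen. Members and lists were chosen with earlier results of these data known. Positions are from GENCODE M21 (GRCm38) by Ensembl identifier (95.5% of genes). Genes near the members without a match, Fendrr among them, were placed by RefSeq synonym where there was one. The table's own coordinates served only to find neighbours.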

Additional observations from a re-analysis of the deposited data

Results flagged for a closer look

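A group of 4 libraries was examined for a library far from the rest, by the gap from the outermost library to its nearest neighbour divided by the whole range and set against Dixon's 95% critical value. The 3 DMSO libraries were not examined in this way. Of 33 values examined, chance would give about 1.65, and 2 were found. For the log2 ratio of Foxf1a to Foxf2 the share was 0.850, since purmorphamine replicate 8 was at -3.46 and the other 3 libraries were between -2.25 and -2.04. For Bcl6 reads it was 0.962, since purmorphamine replicate 7 had 753 reads and the others 727, 728 and 728. All 4 Bcl6 libraries were above every DMSO library, at 396 to 434 reads.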

How the results depend on the processing

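No paired analysis was made, because the labels name no pairs and no library number occurs in both groups. Whether cultures were handled in pairs is not stated. Of the values recomputed (the counts of calls, the 29 single genes and, with each library left out or another pseudocount, the 4 paralog ratios), none changed direction. The median log2 fold change of all genes, 0.0038, was -0.0013 with the correction for GC content and length. Gli1, Ptch1, neighbours other than Foxq1 and forkhead members, markers and levels were not recomputed. Of 460 values of 29 single genes, 437 kept their direction and their side of the threshold and 23 lost the call, and 13 genes never changed. A required change of at least 1.5-fold left 5 members higher (8 without it), 3 other forkhead genes (of 11 called), 4 FoxO targets (of 18), 1 FoxO regulator (of 11), and 977 higher and 936 lower genes of all tested (of 3887 and 3854). An adjusted p under 0.05 left 7 FoxO regulators. With each library left out, the members called were 7 to 8 higher and 0 to 1 lower (0 without DMSO replicate 2), other forkhead genes 10 to 12, FoxO targets 16 to 17, FoxO regulators 7 to 11 (7 without DMSO replicate 2), and all genes 3500 to 3961 higher and 3374 to 3793 lower. Library totals alone in place of TMM raised the median of all genes by 0.05 on the log2 scale and gave 4650 higher and 3163 lower genes. The cause of these shifts was not tested, beyond the stricter rules or fewer libraries by which the alternatives were built. Foxs1 had no value with at least 10 counts required in every library. Few reads limit Foxs1, Foxf1a, Foxo6 and Foxq1.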
